A study of Homo sapiens with 3 samples.

Results

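The genes that take up, bind, store and oxidise vitamin A were examined in LX-2 cells, an established human hepatic stellate cell line. They were chosen by name from the deposited table. The 9 genes sought were LRAT, CRABP1, CRABP2, STRA6, ALDH1A1, ALDH1A2, ALDH1A3, RDH10 and DHRS3. 8 of them were found among the 24254 gene symbols listed (26108 rows), and the mRNA of CRABP1 was not analysed here. The mRNA of 3 cultures was sequenced, with 1 library each for vehicle, 50 ng/mL rhFGF19 and 100 ng/mL rhFGF19 (recombinant human FGF19, a hormone of the fibroblast growth factor family). The rhFGF19 libraries are called the lower dose and the higher dose. The groups follow the titles and agent fields of the samples. The descriptions exchange the doses of both rhFGF19 libraries, and they give 72 h and 73 h where the series design gives 24 h. All 3 libraries come from one cell line with no genetic change named, and no library had a replicate, so every difference below is between single libraries and has no error estimate and no test. Values are FPKM, the fragments of a gene divided by the length of its transcript and by the mapped total, so that levels of different genes can be set side by side.

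A quiescent stellate cell stores most of the vitamin A of the liver as retinyl esters in lipid droplets. Retinol enters cells through the receptor STRA6, LRAT joins it to a fatty acid for storage, and the ester is later hydrolysed. RDH10 oxidises retinol to retinal, DHRS3 reduces retinal back to retinol, and the ALDH1A enzymes oxidise retinal to retinoic acid. CRABP1 and CRABP2 bind retinoic acid in the cytoplasm, and CRABP2 delivers it to the nuclear receptors RAR and RXR, which bind DNA at repeats of a short half-site. CYP26 enzymes break retinoic acid down. Stellate cells that turn into myofibroblasts are known to lose their retinoid droplets.

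Of this set, LX-2 libraries held appreciable mRNA of CRABP2 and ALDH1A3. These were the only members at or above 1 FPKM, in each of the 3 libraries. CRABP2 was the highest at 11.23 FPKM in vehicle, 9.17 at the lower dose and 8.06 at the higher dose. ALDH1A3 was listed at 2.01, 5.13 and 5.42 FPKM, in the same order. LRAT, the storage enzyme, was listed at 0 in every library, though through a transcript that does not encode the enzyme. The highest value of the remaining 5 members was 0.74 FPKM.

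The DNA just upstream of the start sites is shown for the members with the highest mRNA, CRABP2 and ALDH1A3, for the storage enzyme LRAT, and for STRA6, a gene named for its response to retinoic acid. Each window holds the 250 bases before a RefSeq start site in GRCh38.p14, written 5′ to 3′ on the strand of the gene. Capitals mark matches to the retinoic acid receptor half-sites, which are AGGTCA with its variants AGTTCA and GGGTCA and the further form GGTTCA, on either strand, 6 bases each, and these letters are also bound by other nuclear receptors. The CRABP2 window is chr1:156705785-156706034 on the minus strand, that of ALDH1A3 is chr15:100879581-100879830 on the plus strand, that of LRAT is chr4:154743750-154743999 on the plus strand, and that of the first listed STRA6 start is chr15:74212260-74212509 on the minus strand.
CRABP2: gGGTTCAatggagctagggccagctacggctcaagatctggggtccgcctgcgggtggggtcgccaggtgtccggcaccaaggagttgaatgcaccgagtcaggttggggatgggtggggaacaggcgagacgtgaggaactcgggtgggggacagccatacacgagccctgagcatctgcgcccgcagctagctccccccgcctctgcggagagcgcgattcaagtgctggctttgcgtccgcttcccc
ALDH1A3: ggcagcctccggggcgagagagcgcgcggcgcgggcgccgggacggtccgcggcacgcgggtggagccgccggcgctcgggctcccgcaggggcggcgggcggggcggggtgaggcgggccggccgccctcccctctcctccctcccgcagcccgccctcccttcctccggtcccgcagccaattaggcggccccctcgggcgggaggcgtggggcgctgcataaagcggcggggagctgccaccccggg
LRAT: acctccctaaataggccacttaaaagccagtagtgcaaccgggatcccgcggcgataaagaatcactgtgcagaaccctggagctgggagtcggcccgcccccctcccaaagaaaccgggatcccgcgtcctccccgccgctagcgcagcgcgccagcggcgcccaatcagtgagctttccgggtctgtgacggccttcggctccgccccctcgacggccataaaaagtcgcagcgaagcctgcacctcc
STRA6: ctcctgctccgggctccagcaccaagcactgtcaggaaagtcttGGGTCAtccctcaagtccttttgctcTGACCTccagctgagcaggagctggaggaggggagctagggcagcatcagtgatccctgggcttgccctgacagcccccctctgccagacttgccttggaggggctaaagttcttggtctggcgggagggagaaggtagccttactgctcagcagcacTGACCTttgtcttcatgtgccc

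The CRABP2 window held 1 half-site, GGTTCA, starting at base 2. The windows of ALDH1A3 and LRAT held 0. The first of 5 STRA6 windows held 3, the first match at base 45 and the next at base 71, and it was the STRA6 window with the most matches. Among the other STRA6 windows, the third held 1 and the rest held 0. Windows of 8 of the 9 genes were examined, CRABP1 included, and those of RDH10 are not reported here. Of the 15 windows examined, 6 (40.0%) held a half-site, beside 33.8% of all 35116 windows in the RefSeq table. The windows also differed in composition. ALDH1A3 had 82.4% GC and 38 CpG dinucleotides, a GC content above that of 98.6% of all windows, whereas the first STRA6 window had 59.6% GC and 2 CpG dinucleotides. CRABP2 had 65.6% GC with 18 CpG dinucleotides and LRAT 64.4% with 24, beside medians of 58.0% and 11 over all windows. A match describes letters in the sequence, and no binding was measured here.

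**Figure D1:**
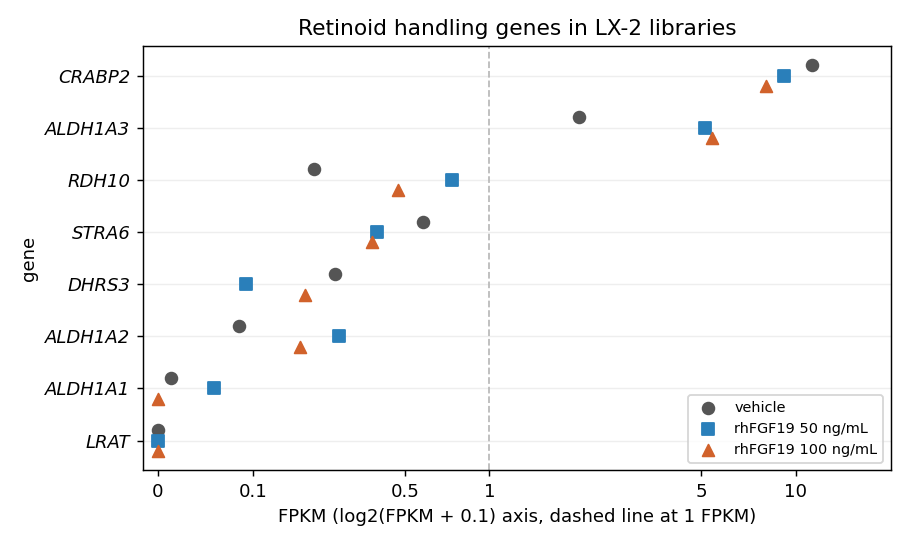
FPKM of the 8 listed retinoid handling genes in each LX-2 library, ordered by mean, on a log2(FPKM + 0.1) axis, with 1 point per library and a dashed line at 1 FPKM. CRABP2 and ALDH1A3 lie to the right of the line in all 3 libraries, and LRAT lies at 0 in all 3.

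By mean over the 3 libraries, CRABP2 (9.49 FPKM) was followed by ALDH1A3 (4.19), RDH10 (0.473), STRA6 (0.447), DHRS3 (0.18), ALDH1A2 (0.177), ALDH1A1 (0.02) and LRAT (0). The ranges over libraries did not overlap between CRABP2 and ALDH1A3, ALDH1A3 and RDH10, STRA6 and DHRS3, or ALDH1A2 and ALDH1A1. They overlapped between RDH10 and STRA6, between DHRS3 and ALDH1A2, and between ALDH1A1 and LRAT, so the order within those pairs is not resolved. CRABP2 exceeded 86.7% of all symbols in vehicle, 82.8% at the lower dose and 81.3% at the higher dose. ALDH1A3 exceeded 71.4%, 75.9% and 76.7%.

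Fold changes are differences of log2(FPKM + 0.1), a scale that understates the change of low genes, and a gene was tested against a 2-fold limit where its mean was at least 0.5 FPKM. 12422 symbols passed this filter, among them 2 of the 8 listed members, CRABP2 and ALDH1A3. Both comparisons with vehicle share the single vehicle library, so the second is not independent of the first. The background in them was high. More than 2-fold higher than vehicle were 39.5% of the symbols at the lower dose and 38.6% at the higher dose, and more than 2-fold lower were 1.75% and 1.47%. The median log2 fold change over all these symbols was 0.62 at both doses. Between the rhFGF19 libraries it was 0.0, and 1.64% of symbols were more than 2-fold apart. For the 2 members the median was 0.51 at the lower dose and 0.46 at the higher dose, with 1 more than 2-fold higher and 0 more than 2-fold lower at each dose, a share that cannot be read against the background with so few genes.

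Uptake was represented by STRA6 (ENSG00000137868, chr15:74179466-74212225), the membrane receptor for retinol bound to its plasma carrier. STRA6 was listed at 0.58 FPKM in vehicle, 0.39 at the lower dose and 0.37 at the higher dose. Vehicle was highest, both rhFGF19 libraries lay close together, and the mean was below the filter. The log2 fold change was -0.47 at the lower dose and -0.53 at the higher dose.

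Storage was represented by LRAT (ENSG00000121207, chr4:154626945-154753118), lecithin retinol acyltransferase. It was listed at 0 in all 3 libraries, as were 530 rows of the table in all. The row of LRAT names only 1 transcript, a retained intron form, whereas GENCODE v29 holds 8 for the gene, of which 3 are coding. The value therefore does not speak to the coding mRNA of LRAT. Such rows were few: 472 of 15690 listed coding genes (3.01%) named no coding transcript. Of those rows 22 (4.66%) were at 0 in every library, beside 0.473% of the other coding genes. None of 30 general housekeeping genes or of 79 coding ribosomal protein genes was listed at 0 in any library.

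The interconversion of retinol and retinal was represented by a pair of enzymes of opposite direction, both low. RDH10 (ENSG00000121039, chr8:73294602-73325281), which makes retinal, was listed at 0.21 FPKM in vehicle, 0.74 at the lower dose and 0.47 at the higher dose. DHRS3 (ENSG00000162496, chr1:12567910-12618210), which returns retinal to retinol, was listed at 0.26, 0.09 and 0.19 FPKM. In vehicle both were about level, with RDH10 minus DHRS3 at -0.05 FPKM, and in both rhFGF19 libraries RDH10 was the higher, by 0.65 FPKM at the lower dose and 0.28 at the higher dose. The lower-dose library held the highest RDH10 and the lowest DHRS3, and the higher-dose library lay between it and vehicle for both genes. On the log2 scale RDH10 differed from vehicle by 1.44 at the lower dose and 0.88 at the higher dose, and DHRS3 by -0.92 and -0.31. Between the doses the differences were -0.56 for RDH10 and 0.61 for DHRS3, within 2-fold. Both genes were below the filter.

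RDH10 also shares 1188 bases (chr8:73294602-73295789) with RPL7, a ribosomal protein gene on the opposite strand. RPL7 was listed at 12.82 FPKM in vehicle, 53.15 at the lower dose and 49.66 at the higher dose, with log2 fold changes of 2.04 and 1.95. Whether the counting used strand is not given in the sources used here, and the part of RPL7 reads in the RDH10 values was not tested.

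Among the 3 ALDH1A genes, which serve the step to retinoic acid, nearly all of the mRNA was ALDH1A3 (ENSG00000184254, chr15:100877714-100916626). Of the summed FPKM of the 3 ALDH1A genes it made up 95.7% in vehicle, 94.1% at the lower dose and 96.8% at the higher dose. ALDH1A2 (ENSG00000128918, chr15:57953424-58497866), the form best known from embryos, was listed at 0.08, 0.27 and 0.18 FPKM. ALDH1A1 (ENSG00000165092, chr9:72900671-73080442), an abundant enzyme of adult liver, was listed at 0.01, 0.05 and 0 FPKM. The row of ALDH1A2 overlaps AQP9 and LIPC on the opposite strand, and neither exceeded 0.08 FPKM.

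ALDH1A3 was the member furthest above vehicle among those that passed the filter. Both rhFGF19 libraries, at 5.13 and 5.42 FPKM, lay well above vehicle at 2.01 FPKM and close to each other. On FPKM + 0.1 the fold was 2.48 at the lower dose and 2.62 at the higher dose, a log2 fold change of 1.31 and 1.39, and the difference between the doses was 0.08. The summed FPKM of the ALDH1A genes went from 2.1 in vehicle to 5.45 and 5.6. Antisense loci named AC015712 overlap ALDH1A3 on the opposite strand, and they were listed at no more than 0.2 FPKM.

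Fold changes in these libraries followed the GC content of the transcripts, and ALDH1A3 depends on how that is taken into account. The trend in log2 fold change was 1.47 at 40% GC and -0.32 at 60% GC at the lower dose, and 1.46 and -0.31 at the higher dose. With the median GC content of its listed transcripts, 56.7%, the trend at ALDH1A3 was -0.08 at the lower dose and -0.07 at the higher dose, so the gene lay 1.39 and 1.46 above it. More than 2-fold above that trend were 3.74% of symbols at the lower dose and 3.31% at the higher dose. Its longest coding transcript, however, has 51.3% GC, and on the trend of the longest coding transcripts ALDH1A3 lay 0.76 and 0.85 above, within 2-fold, where 3.07% and 2.73% of symbols were past it. This second measure was chosen after the data were seen. Once the length trend was taken out the log2 fold change was 0.89 and 0.97, and after quantile normalization it was 0.53 and 0.63. Of the 10 alternatives that recompute this fold, it was positive in 10 at each dose and past 2-fold in 7. Such counts, here and below, include keeping the highest row for each symbol, which left the fold of every member unchanged. They also include averaging both rhFGF19 libraries, which gives the same value at each dose.

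**Figure D2:**
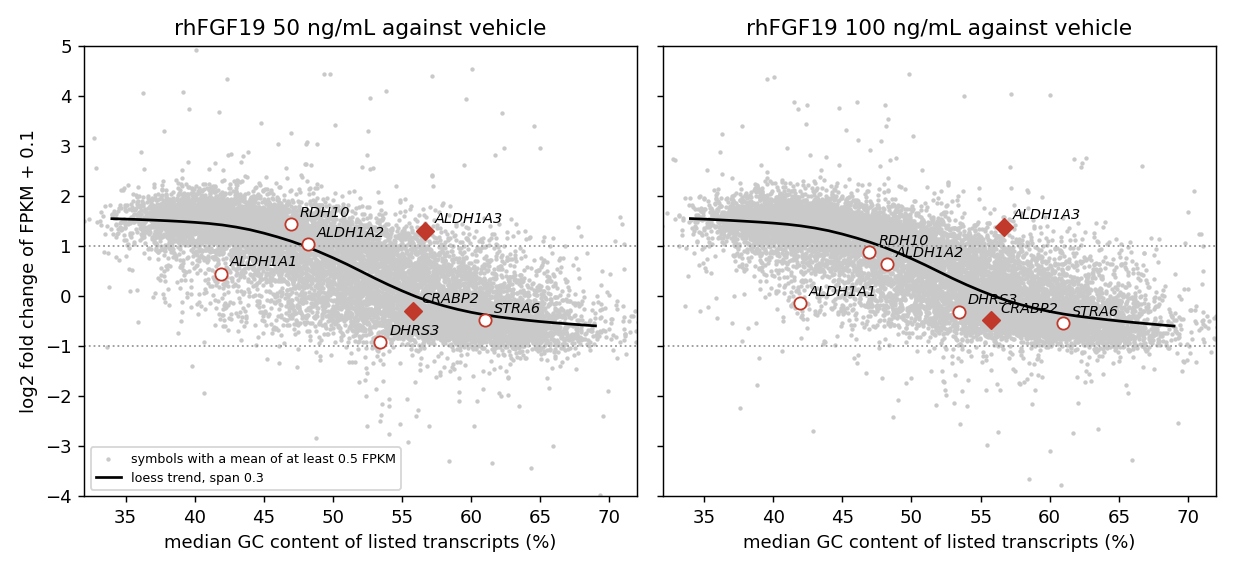
Log2 fold change of FPKM + 0.1 against vehicle by the median GC content of each gene's listed transcripts, at 50 ng/mL (left) and 100 ng/mL (right); grey points are symbols that passed the filter, the line is the loess trend, dotted lines mark 2-fold, filled diamonds are the members that passed and open circles those below the filter. ALDH1A3 lies 1.39 and 1.46 above the trend, CRABP2 0.31 and 0.50 below it, and LRAT is not drawn.

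The binding proteins of retinoic acid were represented by CRABP2 (ENSG00000143320, chr1:156699606-156705816). Its level was highest in vehicle, lower at the lower dose and lowest at the higher dose, as given above. The log2 fold change was -0.29 at the lower dose and -0.47 at the higher dose, within 2-fold, and -0.18 between the doses. The GC trend at CRABP2 (55.8% GC) was 0.02 at both doses, so the gene lay below it by about the same amount, at -0.31 and -0.50. Its sign was negative in 10 of the 10 alternatives that recompute the fold, over a range of -0.65 to -0.16 at the lower dose and of -0.83 to -0.38 at the higher dose. The share of CRABP2 in the summed FPKM of all listed members was 78.1% in vehicle, 57.9% at the lower dose and 54.9% at the higher dose, while that of ALDH1A3 was 14.0%, 32.4% and 36.9%.

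The symbols whose levels were most like those of CRABP2 over the 3 libraries were TRBC2, HILPDA and MARK4. Likeness was the sum over libraries of the absolute differences of log2(FPKM + 0.1), which was 0.034 for TRBC2, 0.10 for HILPDA and 0.13 for MARK4. TRBC2 was listed at 11.19 FPKM in vehicle, 9.3 at the lower dose and 8.11 at the higher dose.

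The members below the filter followed no single direction. At the lower dose the GC trend was 1.10 at RDH10 and 0.98 at ALDH1A2, and these genes had log2 fold changes of 1.44 and 1.04. At the higher dose both lay below the trend, RDH10 at -0.20 and ALDH1A2 at -0.32 from it, so the sign of their higher-dose fold changes, 0.88 and 0.64, turned once the trend was removed. That trend was fitted on symbols that passed the filter, and both genes were below it. With a pseudocount of 0.01 their higher-dose fold changes were 1.13 and 1.08, and the part of the pseudocount in the turned sign was not tested. The higher-dose fold kept its sign in 8 of 10 alternatives for RDH10 and in 7 of 10 for ALDH1A2. STRA6, with 61.0% GC, had a trend of -0.37 and a fold change of -0.47. It was past 2-fold lower in 2 of 10 alternatives at each dose. DHRS3 lay -1.22 from its trend value at the lower dose and -0.61 at the higher dose, or -0.91 and -0.31 by the trend of the longest coding transcripts, which is within 2-fold. Over 10 alternatives its lower-dose fold ranged from -1.46 to -0.21 and was past 2-fold in 6, and its higher-dose fold in 0. At levels of 0.09 to 0.26 FPKM for DHRS3, a pseudocount of 0.1 weighs heavily and the depth behind each value is unknown.

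The rest of the pathway was present in part, and the counts of higher genes below stand beside the backgrounds of 39.5% and 38.6% given above. Of 8 listed uptake and retinol binding genes, 4 passed the filter and 0 were past 2-fold in either direction at either dose, with median log2 fold changes of 0.40 and 0.08. LRP1, an endocytic receptor that takes up lipoprotein remnants, was listed at 13.09 FPKM in vehicle, 16.92 at the lower dose and 16.23 at the higher dose. The scavenger receptor SCARB1 was at 10.14, 9.43 and 10.04, and the cellular retinol binding protein RBP7 at 2.58, 3.56 and 2.83.

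All 10 genes of esterification and ester hydrolysis were listed and 8 passed, with 2 more than 2-fold higher at both doses and 0 lower. The lysosomal acid lipase LIPA was listed at 3.78 FPKM in vehicle, 9.97 at the lower dose and 10.21 at the higher dose. ABHD5, the co-activator of the lipase PNPLA2, was listed at 0.74, 1.98 and 2.23 FPKM. Both lay on the GC trend, LIPA at -0.03 and 0.02 from it and ABHD5 at 0.07 and 0.25. With the trend removed 0 genes of the list were more than 2-fold higher, and 1, PNPLA4, was more than 2-fold lower at both doses. PNPLA2 itself, the highest gene of the list, was at 54.41, 39.31 and 39.43 FPKM, and the esterase CES2 at 8.38, 10.66 and 11.12. DGAT1, an acyltransferase that can also esterify retinol, was at 9.57, 5.01 and 6.61 FPKM. The median log2 fold change of the list was -0.11 at the lower dose and -0.01 at the higher dose.

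Among retinol and retinal oxidoreductases, 15 of 18 were listed and 5 passed, with RDH11 the only 1 past 2-fold at both doses. RDH11, a retinal reductase of the endoplasmic reticulum, was at 7.25 FPKM in vehicle, 16.95 at the lower dose and 17.63 at the higher dose, and lay on the GC trend at -0.08 and -0.01, so that call too was lost with the trend removed. DHRS4, a peroxisomal reductase, was the highest at 25.65, 18.6 and 16.9 FPKM, though it has near copies (DHRS4L1 and DHRS4L2) between which reads may be split. ADH5 was at 10.03, 18.31 and 18.65. The alcohol dehydrogenases typical of hepatocytes, ADH1A, ADH1B, ADH1C and ADH4, reached at most 0.1 FPKM in any library. The list had medians of 0.48 and 0.67.

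Of the breakdown enzymes, CYP26B1 was the 1 gene of 4 listed that passed. It passed only through the rhFGF19 libraries, where it was high, since its vehicle value was under 0.5 FPKM, so its count as higher is not independent of the filter. It was listed at 0.36 FPKM in vehicle, 0.97 at the lower dose and 1.22 at the higher dose, with log2 fold changes of 1.22 and 1.52. It is GC-rich (58.8%), and it lay 1.47 and 1.76 above the GC trend, or 1.32 and 1.62 above that of the longest coding transcripts. CYP26A1, CYP26C1 and the carotene oxygenase BCO1 were each at 0.02 FPKM or less.

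The nuclear receptors and their partners were all listed, and 8 of 10 passed. RARA was at 10.73, 9.91 and 10.08 FPKM, RARG at 7.12, 5.13 and 5.52, and RXRB at 28.19, 22.12 and 23.8. RARB, both a receptor and a target of retinoic acid, was below the filter at 0.01, 0.3 and 0.12 FPKM. FABP5, which carries retinoic acid to PPARD, was more than 2-fold higher at both doses (0.52, 2.03 and 1.69 FPKM), and so was the corepressor NCOR1 (1.62, 4.22 and 3.76). With the GC trend removed neither was past 2-fold, FABP5 at 0.50 and 0.27 and NCOR1 at 0.19 and 0.05 above it. PPARD was at 23.32, 21.87 and 23.48. The median of the list was 0.00 at the lower dose and 0.03 at the higher dose.

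Of 10 listed retinoic acid target genes, 6 passed, with medians of 0.40 and 0.76, and RAI14 and CYP26B1 were more than 2-fold higher at both doses. RAI14 was at 4.8 FPKM in vehicle, 14.7 at the lower dose and 14.58 at the higher dose. It lay 0.34 and 0.35 above the GC trend, so that with the trend removed CYP26B1 alone of this list was past 2-fold higher. The others went both ways without passing 2-fold at either dose. TGM2 (70.1, 50.33 and 50.56 FPKM) and PLAAT4 (38.19, 23.43 and 26.83) were lower than in vehicle in both rhFGF19 libraries, and BHLHE40 (23.72, 43.79 and 44.84) was higher.

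**Figure D3:**
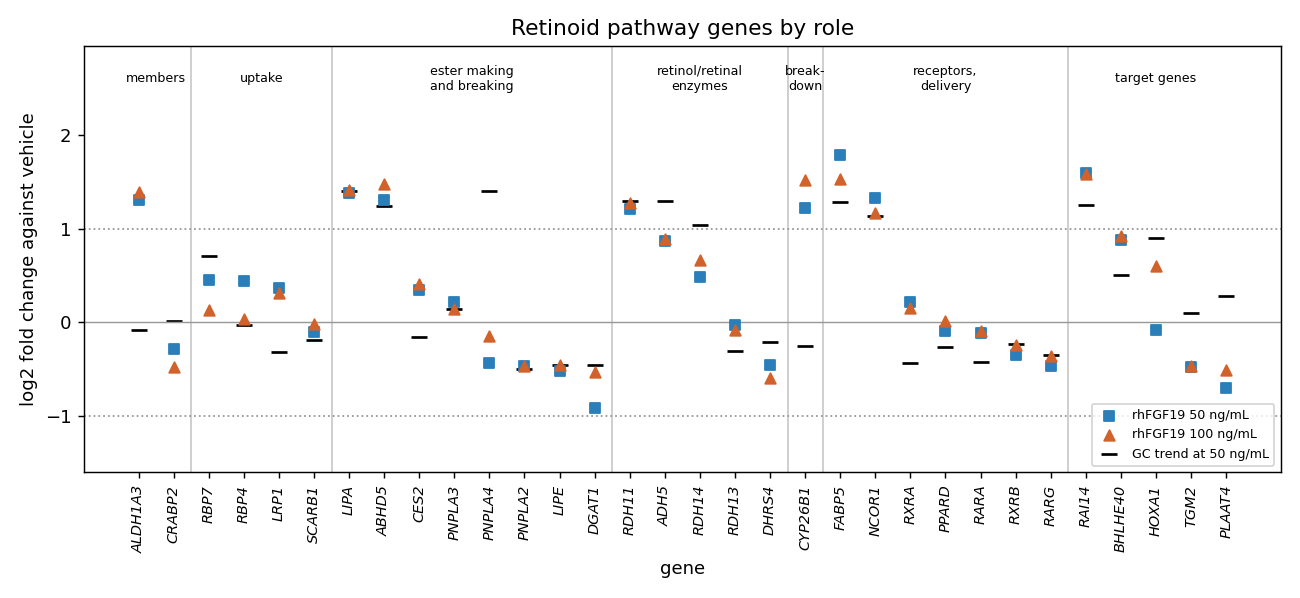
Log2 fold change against vehicle at 50 ng/mL (squares) and 100 ng/mL (triangles) for retinoid pathway genes that passed the filter, grouped by role, each gene drawn once, with black dashes at the GC trend for 50 ng/mL and dotted lines at 2-fold. ALDH1A3 and CYP26B1 lie above 2-fold with a trend value below 0 by median GC content (0.55 for ALDH1A3 by its longest coding transcript), whereas LIPA, RDH11 and NCOR1 lie near their trend values.

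The cells were checked against markers of stellate and other cells. In bulk RNA, fewer cells of a type and less RNA per cell cannot be told apart. All 14 activated stellate markers were listed and 13 passed. VIM was at 438.65, 654.31 and 648.66 FPKM, TIMP1 at 308.41, 183.64 and 192.97, and TAGLN at 222.65, 118.02 and 125.65. Collagen COL3A1 (1.79, 4.15 and 4.3), LOX (1.9, 4.33 and 4.39) and FN1 (58.63, 124.58 and 120.75) were more than 2-fold higher at both doses, as was 1 more gene of the list, CCN2. With the GC trend removed 0 of the activated markers were more than 2-fold higher, COL3A1 at -0.29 and -0.23 from the trend, LOX at -0.15 and -0.12, FN1 at 0.31 and 0.28 and CCN2 at 0.45 and 0.51. By the trend of the longest coding transcripts COL3A1 lay above, at 0.72 and 0.79, and LOX, FN1 and CCN2 kept their signs. Of 15 quiescent markers 7 passed and 0 were past 2-fold at either dose, with medians of 0.19 and 0.10, though HAND2 lay 1.07 above the GC trend at the higher dose. ECM1 (34.59, 34.12 and 33.69), NGFR (13.44, 11.27 and 10.14) and PTH1R (3.37, 2.86 and 3.61) were the highest. Defining quiescence genes were near 0: PPARG reached 0.07 FPKM, GFAP 0.11 and DES 0.08. Measured against the label of a stellate line, 13 of the 14 activated markers were present and the quiescent markers only in part. The activated marker below the filter was the collagen gene COL1A2, at 0.03 FPKM in vehicle, 0.1 at the lower dose and 0.14 at the higher dose.

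**Figure D4:**
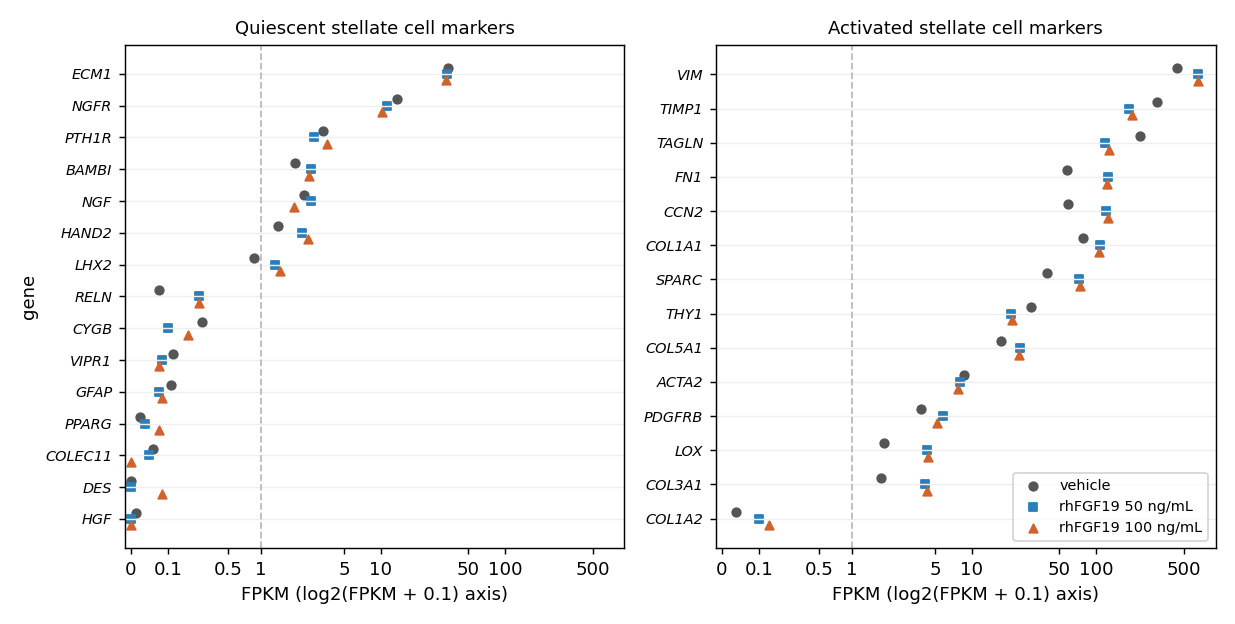
FPKM of quiescent (left) and activated (right) stellate cell markers in each LX-2 library on a log2(FPKM + 0.1) axis, with a dashed line at 1 FPKM. Activated markers apart from COL1A2 lie above the line in all 3 libraries, while 8 of the 15 quiescent markers lie below it in all 3.

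Markers of other cells were in part near 0 and in part well expressed, the keratins KRT18 and KRT8 and CD68 most of all. The 12 hepatocyte markers summed to 14.34 FPKM in vehicle, 14.45 at the lower dose and 13.43 at the higher dose, and the 3 that passed were SERPINA1 (8.93, 9.62 and 9.11), ALB (2.16, 2.49 and 1.89) and ASGR1 (2.92, 1.75 and 1.85), while HNF4A reached 0.01. The 5 listed endothelial markers summed to at most 0.5 FPKM and 0 passed, with VWF the highest at 0.47 and CDH5 and KDR at 0.08 or less. Of 5 listed blood and macrophage markers 2 passed, CD68 (47.53, 44.18 and 39.81) and CD14 (4.28, 2.76 and 2.54), while LYZ was at most 0.16 and HBB at most 0.04. Of 7 listed epithelial and cholangiocyte markers 5 passed. KRT18 was at 382.22, 225.86 and 223.78 FPKM and KRT8 at 120.96, 81.89 and 78.5, lower in both rhFGF19 libraries, while SOX9 was at 4.77, 9.96 and 9.64, CDH1 reached 0.01 and KRT19 0.11. The part of these markers in the retinoid values was not tested.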

How the data were processed

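The mRNA of LX-2 cells was sequenced as 1 library per condition. The authors deposited FPKM values written to 2 decimals, 1 per gene and library, with coordinates. The methods name HISAT2 for mapping, and the submitters' processing notes list Bowtie 0.12.2, HISAT2 2.0, StringTie 1.3.0 and the builds mm8 and hg19 without roles. Of 25531 rows found in GENCODE 29, 99.7% overlapped the GRCh38 position, and coordinates here are those of the table. FPKM holds no read counts, so depth is unknown and no interval or count test was possible. The FPKM of the libraries summed to 302243 (vehicle), 276690 (50 ng/mL) and 281606 (100 ng/mL).

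Rows sharing a symbol were summed, log2(FPKM + 0.1) was compared for symbols averaging 0.5 FPKM or more, and 2-fold (log2 above 1) was the limit. No p-values were computed. Transcript GC content and length were medians over the transcripts listed in the table, from GENCODE 29, and trends were loess fits with a span of 0.3. GC values were found for 99.6% of the symbols that passed. Upstream windows came from RefSeq (GRCh38.p14).

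Genes and lists were chosen with earlier results of these data known. Besides the 9 genes, each list contributed its 3 highest genes by mean and up to 3 genes past 2-fold in the same direction at both doses; genes named beyond this rule (DGAT1, PNPLA4, HAND2, RARA, RARB, RARG, CCN2, the near-zero markers and those of the closing section) were chosen after their values were seen. The values of 1 gene that the rule names are not reported here, and it is left out of the plot of pathway genes. 12 alternatives were planned and 1 was added after the data were seen. Python 3.11.15, statsmodels 0.14.6, SciPy 1.17.1, pandas 2.3.3, NumPy 2.4.6 and matplotlib 3.10.9 were used, and the fold calculation was tested on simulated data.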

Additional observations from a re-analysis of the deposited data

How the results depend on the processing

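Across the 13 alternatives, the count of members past the limit on the lower side was 0 at both doses, as was that of members past it between the doses where the setting compares them. Members below the filter were not counted, except in the setting without a filter. The member more than 2-fold higher, ALDH1A3, fell within 2-fold (a count of 0 at both doses) after quantile normalization, after removal of the length trend and after removal of the GC trend of the longest coding transcripts, which was added after the data were seen. Without the filter on low values the count at 50 ng/mL was 3. The median log2 fold change of the members, main values 0.51 at 50 ng/mL and 0.46 at 100 ng/mL, was 0.38 and 0.33 with a pseudocount of 1, 0.22 and -0.069 over all 8 listed members without the filter, 0.65 and 0.57 as TPM, 0.28 and 0.24 with the median ratio to vehicle set to 0, -0.018 and -0.072 after quantile normalization, 0.12 and 0.067 with the length trend removed, and 0.24 and 0.19 with the GC trend of the longest coding transcripts removed. The cause of these shifts was not tested. With 1 library per condition no library could be left out. No paired analysis was possible because each condition has a single library. The depth is unknown, which limits values below 0.5 FPKM most.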

Other observations

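Genes of the lipid droplet, the compartment that holds retinyl esters, were listed for 11 of 12 names, and 5 passed the filter. The droplet coat gene PLIN2 was more than 2-fold higher at both doses (0.92 FPKM in vehicle, 2.44 at the lower dose and 2.21 at the higher dose), but with the GC trend removed it was within 2-fold, at 0.42 and 0.30. PLIN3, the highest coat gene, was at 137.47, 96.0 and 92.84 FPKM. BSCL2, which encodes seipin, was at 12.15, 4.31 and 7.0 FPKM, with log2 fold changes of -1.47 and -0.79, more than 2-fold lower at the lower dose but not at the higher, and FITM2 was at 2.91, 5.43 and 5.81. The perilipins PLIN1, PLIN4 and PLIN5 did not exceed 0.06 FPKM. The median over the list was -0.50 at the lower dose and -0.30 at the higher dose.

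The retinol metabolism pathway as annotated in the deposited table, a list added after the data were seen, held 50 symbols, of which 12 passed and 38 were below the filter. AOX1, CYP26B1 and RDH11 were more than 2-fold higher at both doses and 0 were lower, with medians of 0.10 and 0.05. CYP26B1 entered this count only through its rhFGF19 values, and with the GC trend removed it was the 1 gene left past 2-fold higher. AOX1, an aldehyde oxidase able to act on retinal, was listed at 3.75 FPKM in vehicle, 12.54 at the lower dose and 11.41 at the higher dose, and lay 0.51 and 0.40 above the GC trend. RETSAT, the retinol saturase, was at 11.04, 12.98 and 12.23 FPKM.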
